A study of Mus musculus with 4 samples.

Results

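Expression of 10 genes of the p53 and DNA damage response was described in cortical nuclei from GCLC-KO mice of 2 ages, 3 and 6 months. The members were the rows of the feature table named Trp53, Mdm2, Cdkn1a, Ccng1, Gadd45a, Gadd45b, Bax, Bbc3, Trp53inp1 and Phlda3, 10 of 32285 genes. All 10 were present, with between 598 and 9297 UMIs (unique molecular identifiers, 1 for each RNA molecule counted) over the nuclei assigned to any of 12 cell types. The series held 4 libraries of single-nucleus RNA sequencing, each from 1 mouse: 3M-1 and 3M-2 at 3 months, and 6M-1 and 6M-2 at 6 months. Every mouse carried the same genotype, a floxed Gclc allele (C57BL/6NTac-Gclctm1a) crossed with CaMKII-Cre, and no treatment was given. Gclc encodes the catalytic subunit of glutamate-cysteine ligase, which makes the precursor of glutathione, and CaMKII-Cre acts in excitatory neurons of the forebrain, so that interneurons and glia were not targeted. No wild-type library was analysed here, and a difference between the ages could therefore not be separated into ageing and the effect of Gclc loss. The tissue was the part of the cortex rich in rod-shaped microglia, and nuclei were sorted as DAPI-positive singlets.

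p53, encoded by Trp53, is a transcription factor that is held at a low level by the ubiquitin ligase Mdm2 and is stabilised mainly at the protein level when DNA is damaged or the cell is oxidatively stressed. It then activates genes that stop the cell cycle (Cdkn1a), genes of repair and stress signalling (Gadd45a), genes that open the mitochondrial path to cell death (Bax, Bbc3) and its own inhibitor Mdm2. In neurons, which no longer divide, the same program has been linked to survival and to death after oxidative stress. RNA levels of these genes are read here as RNA levels, and p53 protein was not measured.

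The members are protein-coding genes and were located on GRCm38 with the GENCODE M21 annotation. Trp53 lies at chr11:69580359-69591873 on the plus strand, and Mdm2 at chr10:117688875-117710758 on the minus strand. Cdkn1a, the cyclin-dependent kinase inhibitor p21, lies at chr17:29090976-29100727 (plus), and Ccng1, which encodes cyclin G1, at chr11:40748552-40755311 (minus). The stress sensors Gadd45a and Gadd45b lie at chr6:67035096-67037457 (minus) and chr10:80930073-80932204 (plus). Bax, a pore-forming protein of the outer mitochondrial membrane, lies at chr7:45461697-45466898 (minus), and Bbc3, which encodes the BH3-only protein PUMA, at chr7:16308393-16318205 (plus). Trp53inp1, a stress-induced partner of p53, lies at chr4:11156431-11174379 (plus), and Phlda3, a p53 target that restrains Akt, at chr1:135766119-135769136 (plus). Bax overlaps Gm45808 on the same strand, so reads shared by both genes cannot be assigned with certainty. Cdkn1a overlaps AC167363.2 and Gadd45a overlaps E230016M11Rik, each on the opposite strand.

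p53 binds DNA at a response element of 2 decamers, 20 bases when they adjoin. Promoter windows of 300 bases, from 250 bases before to 50 bases after the transcription start, were taken from RefSeq (GRCm38.p6) and searched on both strands for the consensus p53 decamer. No other motif was searched. A window was given for 9 of the 10 members, with 12 windows in all, and Trp53inp1 was not matched. An exact decamer occurred in a window of 6 of these 9 members, some of which had several windows. Counted by window and not by gene, 8.36% of all 32841 windows held one. Many members were chosen as targets of p53, so these shares are a description and not a test. An element of 2 adjoining decamers was allowed at most 2 of 20 bases off the consensus. It occurred in a window of Cdkn1a and in that of Ccng1, against 0.798% of all windows. These elements are shown because no other member window held one, with the 20 bases of the element in capitals. The Cdkn1a element is at chr17:29090928-29090947, upstream of the annotated gene. It begins 51 bases before the RefSeq start of its window (position -51). The window of another Cdkn1a start, chr17:29093519-29093818, held no exact decamer, and its closest match was 5 bases off. The Ccng1 element is at chr11:40755462-40755481 on the minus strand, also upstream of the gene, and begins at position -195.
Cdkn1a, chr17:29090923-29090952, plus strand: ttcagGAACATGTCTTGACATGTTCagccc
Ccng1, chr11:40755457-40755486, minus strand: aggccAGACCTGCCCGGGCAAGCCTtggca
Each element was 1 base off the consensus. The match is a description of the sequence, and binding of p53 was not measured.

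Of 30784 nuclei in the deposited matrices, 30515 passed the filter of the study (at most 7000 genes and at most 1% mitochondrial UMIs), and each library held 59262228 to 65894316 UMIs. Nuclei were assigned to cell types by marker genes that include no member, and 27185 nuclei (89.1%) fell in 6 main types. All markers of each type were detected in its own gate, among them 9 of excitatory neurons and 12 of microglia. The gates were set with these markers, so their detection does not test the gates. A further 183 to 517 nuclei a library were assigned to striatal-type spiny neurons and kept apart. The 8 markers of that type were not confined to it. Relative to its own gate, their summed level was 85.5% in excitatory neurons, 93.0% in interneurons and 70.5% in astrocytes. Excitatory neurons gave 41056460 to 46704831 UMIs per library, inhibitory interneurons 6266184 to 9812080, oligodendrocytes 1504727 to 3315458, microglia 616277 to 1462592, oligodendrocyte precursors 841557 to 1209310 and astrocytes only 166984 to 241074, from 47 to 93 nuclei. Library 3M-2 stood apart: its excitatory nuclei held a median of 7546 UMIs, against 10058.5 to 11270 in the others, and without it the number of genes called for age in excitatory neurons went from 0 to 2056. Any 2 libraries shared 12 to 19 cell barcodes. Levels are given as CPM, the UMIs of a gene in each 1000000 UMIs of that cell type in that library. Gclc itself was at 33.5 to 43.0 CPM in excitatory neurons and at 37.4 to 47.3 in interneurons, with no difference called (log2 -0.01 ± 0.06 (SE), adjusted p = 0.85), but counting at the 3' end of the transcript does not show whether the floxed part was deleted. In the study, Western blots of the cortex showed a marked loss of GCLC protein in GCLC-KO mice. Every library came from a female mouse, with Xist at 1726 to 1909 CPM over all nuclei and no Y-linked gene above 9 UMIs.

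The levels of the members differed between cell types. UMIs were summed per library and cell type, given as CPM, and each of the 6 types was tested against the mean of the other 5 with the mouse as a block. Of 54 tests, 26 passed an adjusted p of 0.05, 13 higher and 13 lower. The 6 differences of a gene are tied, because each type is part of the mean used for the others. A high level in 1 type thus lowers the differences of the other types, and higher and lower calls are not independent. Gadd45a was not tested there because it did not pass the filter on low counts, so 9 of the 10 members were tested. A gene can pass that filter through the sums of 1 type. Cdkn1a and Phlda3 passed it only with their oligodendrocyte sums, and Bbc3 only with its microglial sums. The higher calls of these genes in those types are therefore not independent of the filter. In oligodendrocytes, the myelin-forming cells, 8 of 9 members were higher and none was lower, with a median log2 difference of 1.07 over the 9 members against -0.02 over all genes tested. Over all genes, 62.2% were called in oligodendrocytes and 30.6% were called higher. In excitatory neurons 7 of 9 members were called, 6 of them lower, where 70.1% of all genes were called and 33.9% were lower. In inhibitory interneurons 5 of 9 were called, all lower, where 62.1% of all genes were called and 29.2% were lower. In microglia 4 of 9 were called, 3 of them higher, where 67.8% of all genes were called and 31.9% were higher. A single member was called in oligodendrocyte precursors (35.4% of all genes called) and a single one in astrocytes (27.5%). These differences are in shares of a type's UMIs. A nucleus held a median of 9633 UMIs in excitatory neurons, 7875 in interneurons, 2118 in oligodendrocytes and 1829 in microglia. Levels per nucleus were not tested and can differ in order. Mdm2 gave 6045 UMIs in 15955 excitatory nuclei and 945 in 4366 oligodendrocyte nuclei, more per nucleus in excitatory neurons. Phlda3 gave 208 and 235 UMIs there, more per nucleus in oligodendrocytes.

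**Figure D1:**
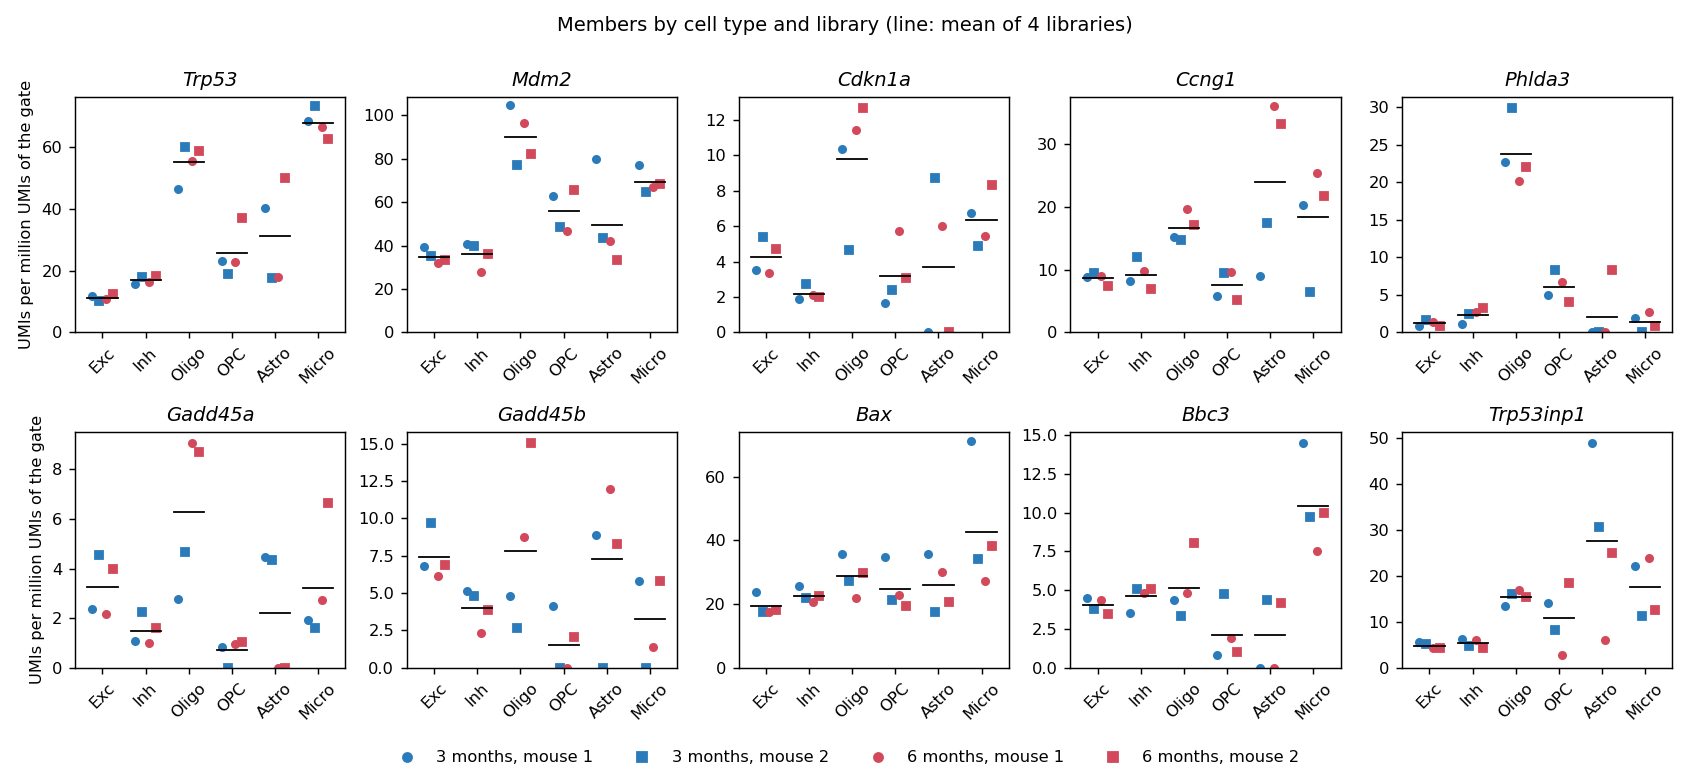
Level of each member in CPM, the UMIs in each 1000000 UMIs of the cell type (y axis, linear, own scale for each gene) in 6 cell types (x axis), with 1 point for each of the 4 libraries and a line at their mean. Trp53 is highest in microglia, and Mdm2 has its highest mean in oligodendrocytes. Phlda3 is between 20.2 and 29.9 in oligodendrocytes and at most 8.32 in any other type, microglia and astrocytes included.

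In CPM, Trp53 was highest in microglia, where it was at 68.4 and 73.0 CPM in the 3-month libraries and 66.3 and 62.4 CPM in the 6-month libraries. In oligodendrocytes it was at 46.2 and 59.8 CPM at 3 months and 55.5 and 58.5 CPM at 6 months, and these values did not overlap with the microglial ones. Astrocytes (mean 31.3 ± 16.2, SD, n = 4) and oligodendrocyte precursors (25.5 ± 7.89) overlapped with each other. Interneurons had 15.7 to 18.2 CPM and excitatory neurons 10.0 to 12.4 CPM, the lowest of all types, with no overlap between these classes. On the log2 scale Trp53 differed from the other types by 1.10 ± 0.12 (SE) in microglia (adjusted p = 9.58e-09), by 1.23 ± 0.11 in oligodendrocytes (adjusted p = 6.81e-11), by -0.84 ± 0.11 in interneurons (adjusted p = 3.66e-07) and by -1.33 ± 0.11 in excitatory neurons (adjusted p = 1.94e-11). In this fit, which scales the libraries by TMM, oligodendrocytes thus came before microglia, so the order of these types depends on the scaling.

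Mdm2, the inhibitor of p53, was at 104.8 and 77.1 CPM at 3 months and 96.5 and 82.2 CPM at 6 months in oligodendrocytes. Microglia followed with 64.9 to 77.1 CPM, up to the level of the lowest oligodendrocyte library. Both neuron classes were low and overlapped, with 32.0 to 39.3 CPM in excitatory neurons and 28.0 to 40.9 CPM in interneurons. The difference from the other types was 1.07 ± 0.09 in oligodendrocytes (adjusted p = 9.56e-11), -0.42 ± 0.09 in excitatory neurons (adjusted p = 0.000152) and -0.60 ± 0.10 in interneurons (adjusted p = 5.78e-06), and it was not called in microglia (log2 0.12, 95% interval -0.12 to 0.36).

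Among the members of cell cycle arrest, Cdkn1a was at 10.4 and 4.65 CPM at 3 months and 11.5 and 12.7 CPM at 6 months in oligodendrocytes. The value of 3M-2 rested on 7 UMIs and stood below the other 3 libraries. Microglia had 4.87 to 8.31 CPM, excitatory neurons 3.34 to 5.42 and interneurons 1.89 to 2.71, while precursors and astrocytes gave 13 and 3 UMIs in all. Cdkn1a passed the low-count filter only with its oligodendrocyte sums. Cdkn1a was 3.09-fold higher in oligodendrocytes than in the other types (log2 1.63 ± 0.26, adjusted p = 5.73e-06) and 2.19-fold lower in interneurons (log2 -1.13 ± 0.34, adjusted p = 0.00587), a call that was lost without 3M-2 (adjusted p = 0.064). Ccng1 was at 14.6 to 19.6 CPM in oligodendrocytes, 6.49 to 25.3 in microglia and 8.90 to 35.9 in astrocytes, against 7.37 to 9.46 in excitatory neurons, 6.82 to 12.0 in interneurons and 5.14 to 9.54 in precursors. It was higher in oligodendrocytes by 0.60 ± 0.18 on the log2 scale (adjusted p = 0.0054) and lower in precursors by -1.01 ± 0.29 (adjusted p = 0.00691), in interneurons by -0.54 ± 0.17 (adjusted p = 0.00686) and in excitatory neurons by -0.39 ± 0.15 (adjusted p = 0.0191). These 3 lower calls of Ccng1 were lost without 6M-2 (adjusted p = 0.061, 0.0973 and 0.14), and those of the neurons also without 6M-1 (adjusted p = 0.0616 and 0.173).

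The Gadd45 genes encode small stress-induced proteins that bind kinases and take part in repair and DNA demethylation. Gadd45b was at 6.80 and 9.70 CPM at 3 months and 6.16 and 6.91 CPM at 6 months in excitatory neurons, above every interneuron library (2.34 to 5.13). Oligodendrocytes spanned 2.66 to 15.0 CPM and so overlapped with both, and the remaining types gave 6 to 15 UMIs in all. It was higher than in the other types by 1.09 ± 0.28 in excitatory neurons (adjusted p = 0.00109), the only member called higher there, and by 1.18 ± 0.37 in oligodendrocytes (adjusted p = 0.0072). The oligodendrocyte call was lost without 6M-1 (adjusted p = 0.0577) and without 6M-2 (adjusted p = 0.146). Gadd45a gave 2.17 to 4.56 CPM in excitatory neurons, 1.02 to 2.23 in interneurons and 2.79 to 9.05 in oligodendrocytes, and 2 to 15 UMIs in all in each of the other types.

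Of the death genes, Bax differed little. It was at 17.6 to 23.9 CPM in excitatory neurons, 20.8 to 25.7 in interneurons and 22.0 to 35.9 in oligodendrocytes, and reached 71.3 and 34.1 CPM at 3 months and 27.4 and 38.2 CPM at 6 months in microglia. The log2 difference from the other types was 0.45 ± 0.13 in microglia (adjusted p = 0.00415), 0.27 ± 0.12 in oligodendrocytes (adjusted p = 0.0483) and -0.23 ± 0.10 in excitatory neurons (adjusted p = 0.0389). The calls in the last 2 types were near the threshold and were lost without 3M-2 (adjusted p = 0.156 and 0.0912) and without 6M-2 (adjusted p = 0.242 and 0.0882), and that in excitatory neurons also without 3M-1 (adjusted p = 0.11). In oligodendrocytes the call was also lost in DESeq2 (adjusted p = 0.128) and with other size factors (adjusted p = 0.104). Bbc3 was at 14.5 and 9.74 CPM at 3 months and 7.52 and 9.98 CPM at 6 months in microglia, on 6 to 15 UMIs a library. Neurons of both classes had 3.45 to 5.11 CPM and oligodendrocytes 3.32 to 8.02 CPM. It was 2.35-fold higher in microglia than in the other types (log2 1.23 ± 0.34, adjusted p = 0.00209) and was not called in any other type. Bbc3 passed the low-count filter only with its microglial sums, so this call is not independent of the filter.

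Phlda3, which competes with Akt for membrane lipids, had the largest of the 54 differences. In oligodendrocytes it was at 22.7 and 29.9 CPM at 3 months and 20.2 and 22.1 CPM at 6 months, on 235 UMIs in all. It passed the low-count filter only with these oligodendrocyte sums. No library of another type was above 8.32 CPM, with 4.11 to 8.32 CPM in precursors, 1.08 to 3.21 in interneurons, 0.796 to 1.71 in excitatory neurons and 0 to 2.74 in microglia. In astrocytes 3 libraries had no UMI and 6M-2 had 2. Astrocytes are part of the mean against which every other type was set. Without 6M-2 that mean thus held no astrocyte UMI of Phlda3, and the part of this in the values below was not tested. The difference was 11.2-fold in oligodendrocytes (log2 3.48 ± 0.24, adjusted p = 4.4e-13), and its size depended on 6M-2, without which the log2 difference was 4.91 (adjusted p = 5.09e-10). It was also lower in excitatory neurons (log2 -1.52 ± 0.43, adjusted p = 0.0028) and in microglia (log2 -1.59 ± 0.61, adjusted p = 0.0231, on 7 UMIs), but without 6M-2 these became -0.02 (adjusted p = 0.947) and 0.06 (adjusted p = 0.925), and the microglial call was also lost without 3M-2 (adjusted p = 0.0582). Trp53inp1 was at 13.5 to 16.9 CPM in oligodendrocytes, 11.4 to 23.9 in microglia and 5.99 to 48.9 in astrocytes, with neurons of both classes at 4.21 to 6.21 CPM, below every oligodendrocyte library. It was lower in excitatory neurons (log2 -1.21 ± 0.17, adjusted p = 6.84e-07) and interneurons (log2 -1.23 ± 0.20, adjusted p = 7.37e-06) and higher in oligodendrocytes (0.65 ± 0.21, adjusted p = 0.00857) and astrocytes (1.48 ± 0.43, adjusted p = 0.00965). The astrocyte call rested on 25 UMIs and was lost without 3M-1 (adjusted p = 0.171) or 3M-2 (adjusted p = 0.079).

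Markers of other cell types were present in the gates. In the microglial gate the 10 oligodendrocyte markers summed to 204 to 501 CPM, 2.24% of their mean in oligodendrocytes, and those of astrocytes and excitatory neurons reached 6.07% and 13.2% of their means in their own gates. In the oligodendrocyte gate the 12 microglial markers summed to 116 to 232 CPM, 1.77% of their mean in microglia, and those of excitatory neurons and interneurons reached 11.4% and 11.3%. Interneuron markers were at 39.4% of their own level in oligodendrocyte precursors. Excitatory markers were at 17.0% of their own level in interneurons, and interneuron markers at 1.78% of theirs in excitatory neurons. Markers of striatal-type spiny neurons were high in both neuron gates, as given above. Their part in the levels of the members was not tested.

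**Figure D2:**
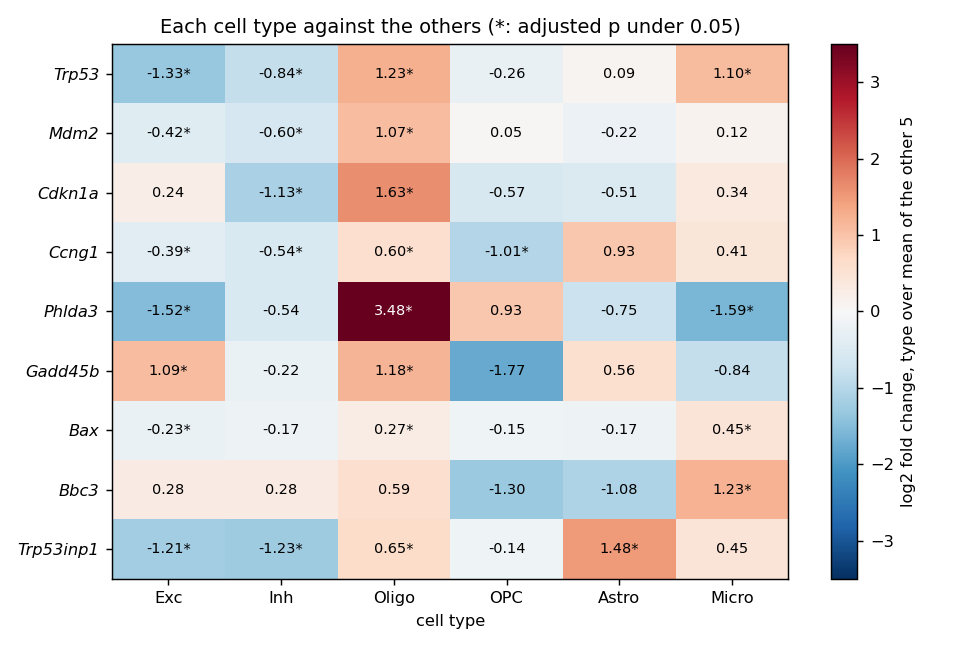
Difference of each cell type from the mean of the other 5 (log2, number and colour) for the 9 members tested (rows) in 6 cell types (columns), where a star marks an adjusted p under 0.05. The oligodendrocyte column has 8 stars, all higher, and both neuron columns are mostly lower.

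Excitatory neurons, the class that CaMKII-Cre targets, were compared with the interneurons of the same 4 mice. Higher levels in excitatory neurons were found for Cdkn1a, Gadd45a and Gadd45b, and lower levels for Trp53 and Phlda3. These 5 of 10 members stand beside 56.3% of all genes called in this comparison, 27.4% higher and 28.9% lower, so that the share of members called was not above that of genes in general. The comparison cannot tell apart the effect of Gclc loss from the difference between these neuron classes in any mouse.

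Cdkn1a was at 3.55 and 5.42 CPM at 3 months and 3.34 and 4.74 CPM at 6 months in excitatory neurons, against 1.89, 2.71, 2.14 and 2.01 in the interneurons of the same mice. It was higher in excitatory neurons in 4 of 4 mice, without overlap, by 2.17-fold (log2 1.12 ± 0.17, adjusted p = 0.000245). Gadd45b, with the CPM given above, was also higher in 4 of 4 mice without overlap (log2 1.07 ± 0.16, adjusted p = 0.000249). Gadd45b is known in neurons as a gene induced by synaptic activity. Trp53 itself went the other way and was 1.35-fold lower in excitatory neurons (log2 -0.43 ± 0.09, adjusted p = 0.00166), in 4 of 4 mice and without overlap.

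Gadd45a was at 2.37 and 4.56 CPM at 3 months and 2.17 and 3.99 CPM at 6 months in excitatory neurons and at 1.08, 2.23, 1.02 and 1.61 CPM in interneurons. It was higher in 4 of 4 mice, although the ranges overlapped (log2 1.32 ± 0.19, adjusted p = 0.000159). Most of its UMIs lay in a single layer. Corticothalamic neurons of layer 6 held 53.9% to 62.2% of the Gadd45a UMIs of excitatory neurons with only 13.8% to 18.7% of their total UMIs. Without these nuclei, excitatory neurons were at 1.06, 2.21, 1.21 and 1.86 CPM, and the difference from interneurons was no longer called (log2 0.29, adjusted p = 0.288). The other calls were kept in that fit.

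Phlda3 was at 0.796, 1.71, 1.39 and 0.875 CPM in excitatory neurons and 1.08, 2.39, 2.75 and 3.21 CPM in interneurons, with the 3-month libraries first. It was lower in excitatory neurons in 4 of 4 mice (log2 -0.82 ± 0.27, adjusted p = 0.0252), but the call was lost without 6M-1 (adjusted p = 0.0645), without 6M-2 (adjusted p = 0.136), without the mouse block (adjusted p = 0.09) and in DESeq2 (adjusted p = 0.0627). Mdm2, Ccng1, Bax, Bbc3 and Trp53inp1 were not called, with log2 differences from -0.06 to 0.14. Their 95% intervals were widest for Bbc3 (-0.39 to 0.36) and narrowest for Bax (-0.21 to 0.09).

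**Figure D3:**
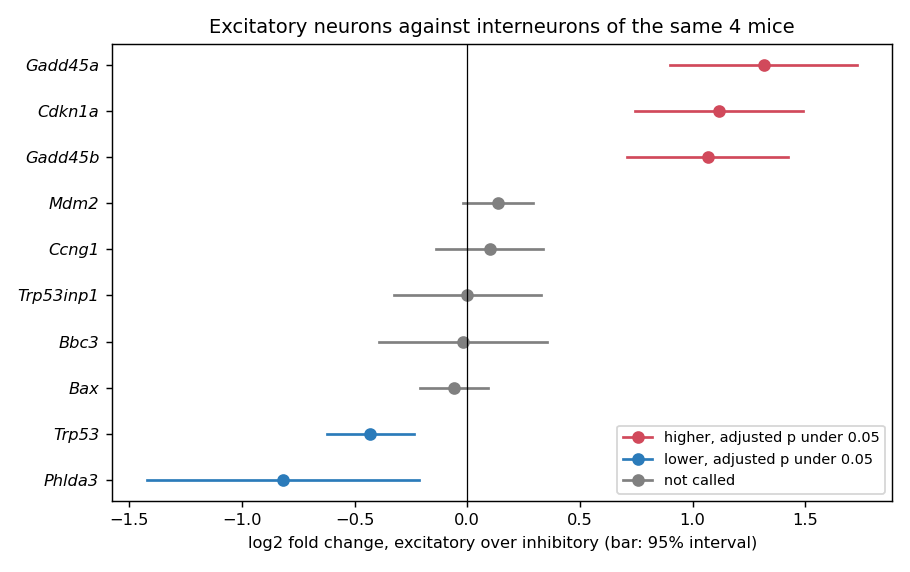
Difference between excitatory neurons and interneurons of the same 4 mice (x axis, log2 fold change, bar: 95% interval) for the 10 members (rows). Gadd45a, Cdkn1a and Gadd45b lie above 0 at 1.07 to 1.32, and Trp53 and Phlda3 lie below 0.

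Within the neuron classes, levels are described by layer and interneuron class without a test. Gadd45a was at 10.1 and 19.3 CPM at 3 months and 6.63 and 13.2 CPM at 6 months in layer 6 corticothalamic neurons. Layer 6b neurons had 1.42 to 9.72 CPM and overlapped with them, whereas layers 2/3, 4 and 5 had 0.17 to 2.04 CPM in every library. Cdkn1a was lower in layer 5 (1.37 to 2.83 CPM) than in layers 2/3 (3.37 to 9.74 CPM) and 4 (2.92 to 7.80 CPM) in each library. Among interneurons, Cdkn1a had a mean of 5.09 CPM in the Vip class and of 0.527 CPM in the Lamp5 class, on 16 and 3 UMIs. Ccng1 was at 12.8 and 19.3 CPM at 3 months and 14.9 and 12.6 CPM at 6 months in the Pvalb class, the fast-spiking interneurons, and at no more than 11.1 CPM in any library of the Sst, Vip and Lamp5 classes. In the layers, Ccng1 was highest in layers 5 (mean 11.1 CPM) and 4 (10.5 CPM) and lowest in layer 6b (5.34 CPM). For the other 7 members the highest and the next class overlapped, and the class means differed by 1.02 to 3.83 times.

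**Figure D4:**
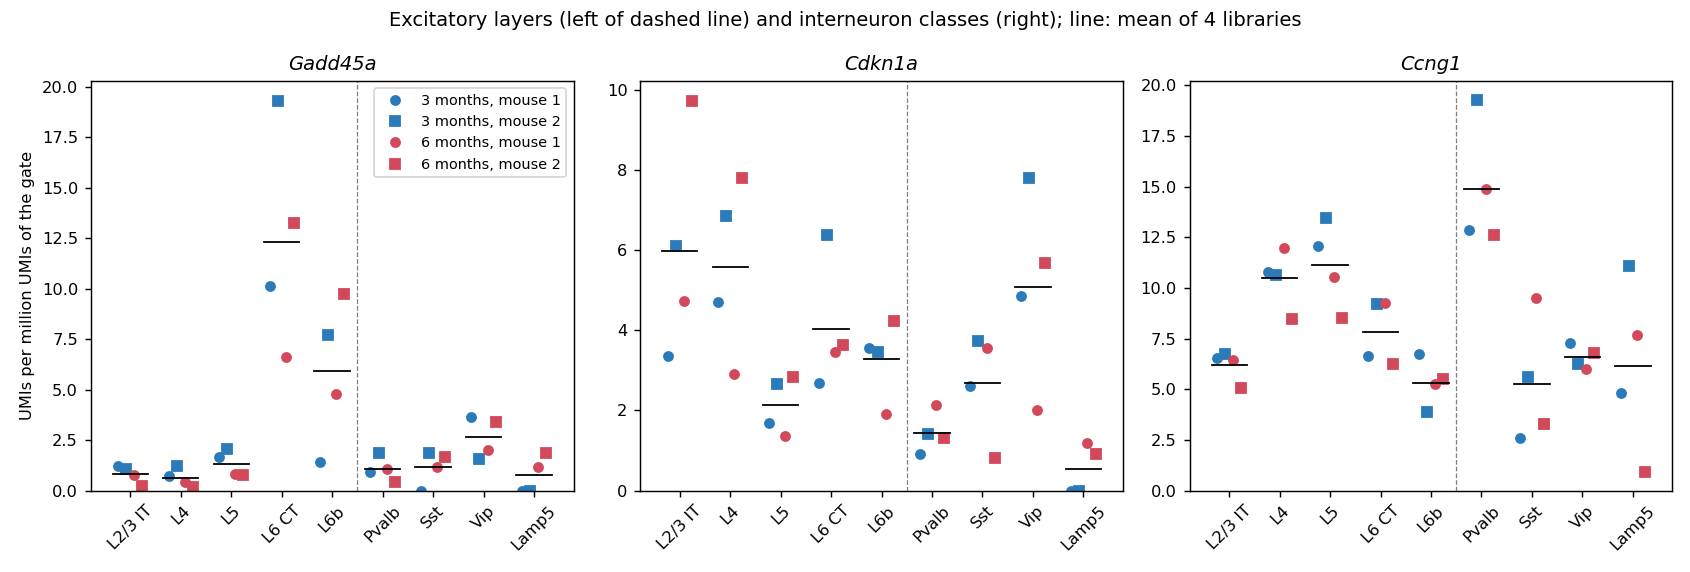
Level of Gadd45a, Cdkn1a and Ccng1 in CPM (y axis, linear) in 5 excitatory layers and 4 interneuron classes (x axis), with 1 point for each of the 4 libraries and a line at their mean. Gadd45a has its highest mean in layer 6 corticothalamic neurons, at 6.63 to 19.3, and overlaps with layer 6b (1.42 to 9.72). Among the interneuron classes Ccng1 stands out in the Pvalb class, at 12.6 to 19.3, which overlaps with layer 5 (8.50 to 13.5).

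Between 3 and 6 months, no member was called in any of the 6 main cell types. Of 40 tests of a member in a cell type, edgeR called 0 and DESeq2 called 0 of the 30 to which it gave an adjusted p. An unadjusted p under 0.05 was found in 3 of the 40 tests, and the smallest adjusted p was 0.42. All 10 members were tested in excitatory neurons, in interneurons and in oligodendrocytes, 6 in microglia, 4 in oligodendrocyte precursors and 0 in astrocytes, where counts were too low. The share of all genes called was 0% in excitatory neurons, 0% in interneurons, 0.128% in oligodendrocytes, 0.0186% in oligodendrocyte precursors, 0.0832% in astrocytes and 0.15% in microglia. With 2 mice at each age, the intervals leave room for large changes of the rarer members.

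In excitatory neurons the log2 differences between 6 and 3 months lay between -0.39 (Trp53inp1) and 0.05 (Trp53), with a median of -0.19 over the members. Mdm2 was at 39.3 and 35.1 CPM at 3 months and 32.0 and 33.2 CPM at 6 months (log2 -0.22 ± 0.16, 95% interval -0.60 to 0.16), and Trp53inp1 at 5.71 and 5.16 CPM against 4.21 and 4.23 CPM (95% interval -0.93 to 0.14). In both genes the ages did not overlap, as in 37% of all genes tested there, and 6 months was below, as in 16.0% of them. Trp53 was at 11.7, 10.0, 10.7 and 12.4 CPM and Cdkn1a at the values given above, with overlapping ages. The interval of Cdkn1a reached from -0.85 to 0.51.

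In interneurons the differences ran from -0.70 (Gadd45b) to 0.79 (Phlda3). Gadd45b was at 5.13 and 4.79 CPM at 3 months and 2.34 and 3.88 CPM at 6 months (95% interval -1.55 to 0.15, adjusted p = 0.93). Whether the age difference itself differed between excitatory neurons and interneurons was tested as an interaction, in which 0 of 10 members were called by edgeR, 0 had an unadjusted p under 0.05, and DESeq2 called 0 of 3 with an adjusted p, where 0.0255% of all genes were called. Phlda3 gave the largest value, 0.92 higher in interneurons on the log2 scale (95% interval -0.14 to 1.97, adjusted p = 0.85).

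Oligodendrocytes had the largest age differences of the members. Gadd45b was at 4.78 and 2.66 CPM at 3 months and 8.75 and 15.0 CPM at 6 months, on 12, 4, 29 and 45 UMIs. Gadd45a was at 2.79 and 4.65 CPM at 3 months and 9.05 and 8.69 CPM at 6 months, on 7, 7, 30 and 26 UMIs. In both 6-month libraries both genes were above either 3-month library, and so also within each batch of 1 library per age. The differences were 1.47 ± 0.47 for Gadd45b (95% interval 0.44 to 2.5, unadjusted p = 0.00894, adjusted p = 0.42 in edgeR) and 1.22 ± 0.47 for Gadd45a (0.20 to 2.24, unadjusted p = 0.0228, adjusted p = 0.55), so that neither passed the test over all genes. Ages did not overlap for 6 of 10 members in this cell type, 5 above (Gadd45a, Gadd45b, Cdkn1a, Ccng1 and Bbc3) and Phlda3 below. Of all genes tested 37.3% did not overlap, 25.6% above and 11.7% below at 6 months. Gadd45a, Gadd45b and Bbc3 passed the low-count filter only with the 6-month libraries. Their place in this count and their age tests are therefore not independent of the filter. The summed microglial markers in the oligodendrocyte gate also differed with age, at 116 and 132 CPM at 3 months and 174 and 232 CPM at 6 months, and their part in these values was not tested. Gadd45b had 0 to 5.82 CPM and Gadd45a 1.62 to 6.65 CPM in microglia themselves. Oligodendrocytes with C4b, a complement gene of reactive oligodendrocytes, were mostly from 6 months (20 and 15 nuclei with a C4b UMI among 1000 thinned UMIs at 3 months, 310 and 271 at 6 months). In the nuclei without a C4b UMI after thinning to 1000 UMIs, which also leaves out shallower nuclei (798, 669, 1161 and 887 nuclei kept of 854, 827, 1505 and 1180), the differences were 1.42 for Gadd45b (adjusted p = 0.40) and 1.39 for Gadd45a (adjusted p = 0.52).

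In microglia Bax was at 71.3 and 34.1 CPM at 3 months and 27.4 and 38.2 CPM at 6 months, with overlapping ages and a single high library, 3M-1. The difference was -0.78 ± 0.35 (unadjusted p = 0.0473, adjusted p = 0.51). Without 3M-2 it was -1.18 (adjusted p = 0.000906), the only age call of a member in any fit, and it then rested on the high value of 3M-1 alone at that age. Trp53 was at 68.4 and 73.0 CPM against 66.3 and 62.4 CPM and Ccng1 at 20.2 and 6.49 CPM against 25.3 and 21.6 CPM, with log2 differences of -0.15 and 0.66 (95% interval of Ccng1 -0.34 to 1.66). Cdkn1a, Gadd45a, Gadd45b and Phlda3 were not tested in microglia and gave 28, 15, 15 and 7 UMIs over the 4 libraries. In oligodendrocyte precursors the 4 members tested differed by -0.42 (Bax) to 0.49 (Trp53).

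**Figure D5:**
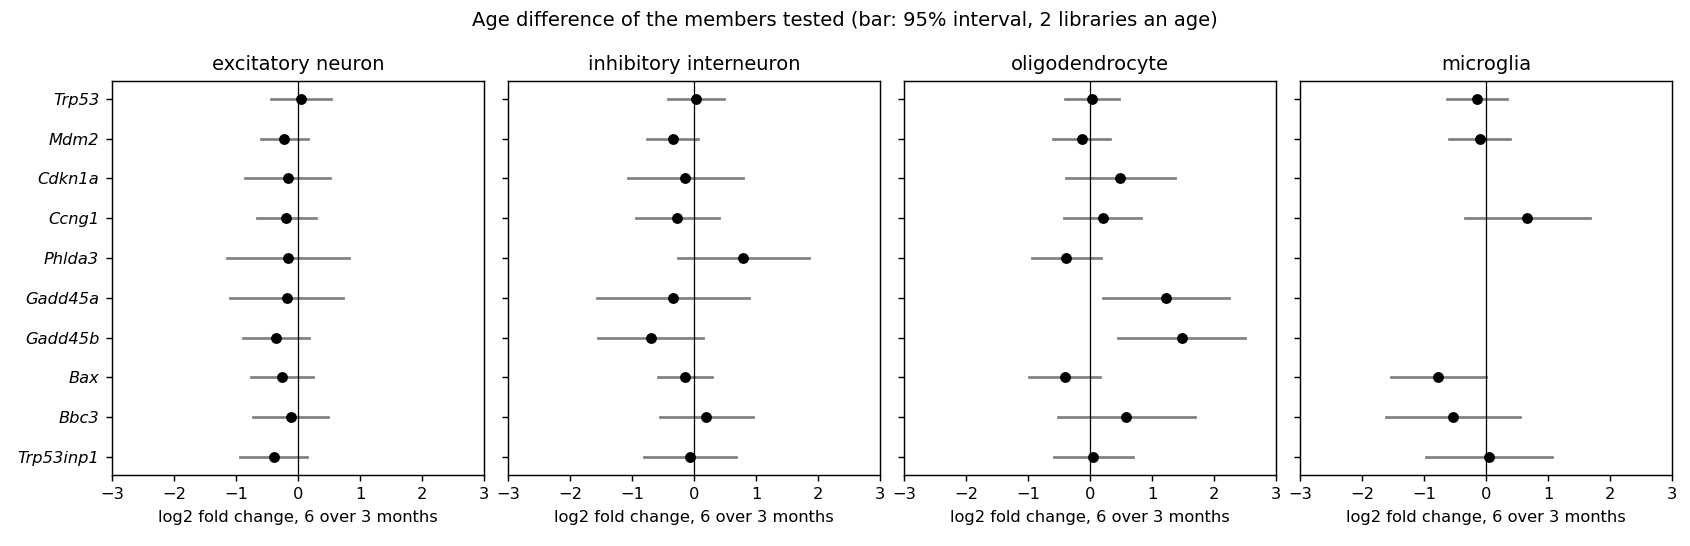
Difference between 6 and 3 months (x axis, log2 fold change, bar: 95% interval, 2 libraries at each age) for the members tested in 4 cell types (panels). Gadd45a and Gadd45b in oligodendrocytes lie above 0 with intervals that leave it out, at adjusted p values of 0.55 and 0.42, and 4 members are missing in microglia because their counts were too low.

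Activated states of glia were compared within the same mice. DAM (disease-associated microglia) are an activated state that the study followed in rod-shaped microglia, and microglia with a UMI of any of 14 DAM marker genes were compared with those without, the class being set in nuclei thinned to 1000 UMIs. Bax was at 96.0, 45.1, 29.7 and 47.5 CPM in DAM-marker microglia (3-month libraries first) and at 55.0, 24.5, 24.5 and 31.5 CPM in the others. It was higher in 4 of 4 mice (log2 0.61 ± 0.23, unadjusted p = 0.0169), but not after adjustment over all genes (adjusted p = 0.18). Of the 4 members tested, edgeR called 0 (1 at an unadjusted p under 0.05) and DESeq2 called 0 of 3, where 4.92% of all genes were called. Trp53 (0.16), Mdm2 (-0.02) and Trp53inp1 (-0.33) had intervals that include 0.

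Oligodendrocytes with a UMI of C4b, Serpina3n, Il33 or Klk8, taken here as markers of reactive oligodendrocytes, were compared in the same way. The make-up of this class differed between the ages. C4b was held by 20 of 284 and 15 of 207 of its nuclei at 3 months, and by 310 of 803 and 271 of 636 at 6 months. Age values within the class therefore do not compare 1 fixed state. Of 8 members tested, edgeR called 0 (2 at an unadjusted p under 0.05) and DESeq2 called 0 of 2, where 3.37% of all genes were called. Gadd45b was at 7.52, 4.79, 10.4 and 17.3 CPM in reactive oligodendrocytes and at 2.97, 2.06, 7.06 and 12.7 CPM in the others, higher in every mouse (log2 0.66 ± 0.33, adjusted p = 0.43). Trp53 was at 31.3, 43.1, 55.0 and 53.8 CPM in reactive oligodendrocytes and at 53.5, 65.9, 56.5 and 63.6 CPM in the others, lower in every mouse (log2 -0.29 ± 0.14, adjusted p = 0.40). With the class set by C4b alone, Trp53 at 6 months was at 49.65 and 58.41 CPM, against 57.17 and 58.42 CPM in nuclei without C4b. At 3 months the C4b class gave 1 UMI of Trp53 a library. Gadd45b at 6 months was at 6.206 and 20.97 CPM with C4b, against 9.466 and 13.41 CPM without it. Gadd45b was thus lower with C4b in 6M-1 and higher in 6M-2, on 4 and 14 UMIs in the C4b class. At 3 months that class gave 0 UMIs of Gadd45b, against 4.531 and 2.933 CPM without C4b. Its 20 and 15 nuclei were too few to show a direction. Gadd45a, not tested for its low counts, was at 1.25 and 2.39 CPM at 3 months and 12.2 and 12.2 CPM at 6 months in reactive oligodendrocytes, and at 3.57 and 4.12 CPM and 5.77 and 4.94 CPM in the others. Its values were higher at 6 months in both classes, on 1, 1, 21 and 19 UMIs in the reactive class. In the others they rested on 6, 4, 9 and 7 UMIs, with a smaller difference between the ages.

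Other genes of the pathway were read from 3 lists: 35 further p53 target genes, 43 genes that sense or repair DNA damage, and 16 genes regulated by neuronal activity. None of these was called for age in any type, with 0 of 120, 0 of 206 and 0 of 61 tests in edgeR (7, 5 and 7 at an unadjusted p under 0.05) and 0 in DESeq2. Between excitatory neurons and interneurons, 27.4% of all genes were called higher and 28.9% lower. Of the 27 p53 targets tested there, 8 were higher and 8 lower, with a median log2 difference of -0.07 against -0.03 over all genes. The higher ones were led by Plk2 (1.42), Btg2 (1.16) and Dram1 (0.84) and the lower ones by Mdm4, the partner of Mdm2 (-0.56), Trp53inp2 (-0.65) and Sesn2 (-1.42). Of the damage genes 5 of 43 were higher, among them Xrcc4 (0.43), Tdp1 (0.32) and Parp1 (0.23), and 13 were lower, among them Trp53bp1 (-0.50), Xpa (-0.54) and Nbn (-0.59). Of the activity-regulated genes 15 of 16 were higher and 0 lower, led by Bdnf (3.12), Homer1 (1.92) and Arc (2.98), with a median of 1.48. Gadd45b was higher beside these, and whether it moved with them was not tested.

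In oligodendrocytes, where 8 of 9 members were higher, the further p53 targets were divided, with 6 of 24 higher, among them Plk3 (1.07) and Mdm4 (0.56), and 8 lower, among them Gadd45g (-1.07) and Zmat3 (-0.98). These counts stand beside 30.6% of all genes called higher in oligodendrocytes, as do those of the damage genes. Of the damage genes 12 of 37 were higher, led by Hipk2 (1.79), a kinase that phosphorylates p53, Xrcc6 (1.82) and Lig3 (1.57), and 6 were lower, among them Trp53bp1 (-1.15) and Parp1 (-0.90). In microglia, where Trp53 was high, 10 of 24 further targets were higher, led by Casp1 (4.27), Ccng2 (2.40) and Btg2 (2.25), and 8 were lower, among them Sesn3 (-2.33). Of the damage genes 8 of 37 were higher and 8 lower in microglia, with a median of -0.13, where 31.9% of all genes were higher. The higher ones included Chek2 (3.04), the kinase that relays DNA breaks to p53, Rad50 (1.01) and Ep300 (0.85), and the lower ones Xrcc6 (-1.15), Polb (-0.89) and Neil1 (-1.02).

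The genes whose mean level followed each member most closely were found over 6 types with at least 50 nuclei in every library (excitatory, inhibitory and striatal-type spiny neurons, oligodendrocytes, their precursors and microglia), by Pearson's r among genes with at least 100 UMIs. They were Mif for Trp53 (r = 0.999), Prdx1 for Mdm2 (0.999), Fam53b for Cdkn1a (0.997), Tomm22 for Ccng1 (0.996), Amd2 for Gadd45a (0.991), Sowahb for Gadd45b (0.997), Snx29 for Bax (0.999), Sbds for Bbc3 (0.994), Lrrc8d for Trp53inp1 (0.999) and Rhoj for Phlda3 (0.994). With 6 points and the closest taken of all genes, values near 1 describe these libraries only.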

How the data were processed

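Nuclei were sequenced from 4 libraries (10x Genomics 3' kit), 2 at 3 months and 2 at 6 months, which the labels put in batch 1 (3M-1, 6M-1) and batch 2 (3M-2, 6M-2). The deposited matrices give raw counts of UMIs for every gene in every nucleus, which the authors made with Cell Ranger on mm10 (per the submitters' processing notes), and no normalization had been applied. The members and gene lists were chosen with earlier results of these data known.

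Nuclei with over 7000 genes or over 1% mitochondrial UMIs were left out. Each nucleus was assigned to 1 of 12 marker lists by likelihood, and 658 weak and 864 nuclei with a second type (likely doublets) were left out. No doublet caller was run. Layers and interneuron classes were set by the marker list with the highest mean z score (standardised log level), with a lead above 0.25 over the next. Glial states were set by marker UMIs in nuclei thinned to 1000 UMIs. No list holds a member. Counts were summed per library and type, since nuclei are not replicates, and tested in edgeR 4.0.16 (TMM, filterByExpr, quasi-likelihood test, Benjamini-Hochberg adjustment over all genes tested, threshold 0.05). Errors of log2 differences are standard errors, derived as the absolute log2 difference divided by the square root of the F statistic of that test. The 95% intervals were built from these with a t quantile. Age was tested with 2 mice against 2 without a block; comparisons of types or states within mice had the mouse as a block, and the interaction of age with neuron class was fitted over both. Comparisons across types assume that a share of a type's UMIs is comparable between types. DESeq2 1.42.0, other size factors, no low-count filter, looser gating, no nuclei filter, batch as a block and each library left out in turn were the alternatives. Scripts were tested on simulated data. All 10 members were described in every type; of the further lists, counts and up to 3 called genes with the smallest p in each direction are named. Gene positions are from GENCODE M21, in which 32158 of 32285 identifiers were found, and promoter sequences from RefSeq on GRCm38.p6. The batch number pairs 1 library of each age, so the fit with batch as a block counts as a paired fit, but same-batch libraries did not deviate together (correlation -0.175 in excitatory neurons to 0.00757 in astrocytes).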

Additional observations from a re-analysis of the deposited data

Results flagged for a closer look

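In 2 members the age difference had opposite directions in interneurons and oligodendrocytes, with every library at 6 months on one side of both 3-month libraries in each type. Gadd45b differed by -0.70 on the log2 scale in interneurons (5.13 and 4.79 CPM at 3 months, 2.34 and 3.88 CPM at 6 months) and by 1.47 in oligodendrocytes (4.78 and 2.66 CPM, then 8.75 and 15.0 CPM). Phlda3 differed by 0.79 in interneurons (1.08 and 2.39 CPM, then 2.75 and 3.21 CPM) and by -0.39 in oligodendrocytes (22.7 and 29.9 CPM, then 20.2 and 22.1 CPM). None of these 4 age differences passed its own test, and the difference between the types was not tested. Gadd45b in oligodendrocytes and Phlda3 in interneurons passed the low-count filter only with the 6-month libraries. Of the 12153 genes tested in both types, 4.13% had ages that did not overlap in opposite directions, and ages did not overlap in 35.4% of genes tested in interneurons and 37.3% in oligodendrocytes. The share of 4.13% was found only for this pair of types, the pair in which the 2 members were seen. It is a description and not a test.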

How the results depend on the processing

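The values recomputed over the alternatives were the 26 called type differences, the 5 called between excitatory neurons and interneurons, and 3 age differences. Those 3 were the age differences with an unadjusted p under 0.05 in edgeR. These 34 single values were thus chosen for passing a threshold, and they gave 324 values in all. Of these, 294 kept their direction and their side of the threshold, 28 kept the direction but were no longer called, 1 became called and 1 reversed, and 21 of the 34 values held under every alternative. The reversed value was Phlda3 in microglia, on 7 UMIs, which ranged from -2.15 without 6M-1 to 0.0629 without 6M-2. The mean it was set against included astrocytes, whose only 2 UMIs of Phlda3 came from 6M-2. No member was called for age except when 3M-2 was left out, which gave 1 (Bax in microglia), so that leaving out 1 library gave 0 to 1. The cause was not tested. Leaving out 1 library gave 19 to 25 called type differences against 26, some of them not among the 26, and 4 to 5 against 5 between excitatory neurons and interneurons. With batch as a block (the paired fit) 0 members were called for age, and the differences in oligodendrocytes were 1.43 for Gadd45b and 1.21 for Gadd45a. With the batch numbers crossed, an alternative chosen after seeing the data, 0 members were called. Over all genes the number called for age varied widely: 0 in excitatory neurons (5 with the block, 140 crossed, 68 in DESeq2, up to 2056 without 3M-2), 0 in interneurons (4, 2, 11, up to 762), 16 in oligodendrocytes (33, 24, 31, 7 to 885 over all alternatives), 2 in precursors (1 to 552), 4 in astrocytes (0 to 88, 66 with the block) and 17 in microglia (2 with the block, 245 crossed, 2 to 1195). The interaction gave 5 (0 to 375), the DAM-marker comparison 433 (131 in DESeq2, 784 with looser gating), reactive oligodendrocytes 363 (111 in DESeq2, 39 with C4b alone), and excitatory neurons against interneurons 10373 (6871 without the mouse block). Fits without C4b nuclei, in 6-month libraries only and without layer 6 corticothalamic nuclei were also chosen after seeing the data. Low UMI counts limit Gadd45a, Gadd45b, Cdkn1a and Phlda3 in microglia and every member in astrocytes.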
